A study of Mus musculus with 2 samples.

Results

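Hepatic stellate precursors are liver mesenchymal cells, and 267 of the 16572 cells kept from mouse embryos were chosen as such by 4 conditions on unique molecular identifier (UMI) counts. A cell had at least 2 UMIs of Lhx2, at least 2 UMIs of Colec10, Colec11 and Reln together, no UMI of Hnf4a and at most 2 UMIs of Upk3b. It also held at least 2000 UMIs and 500 genes, with at most 10% of its UMIs from mitochondrial genes. At E10.5 the rule kept 104 of 7665 cells (1.36%, exact 95% interval 1.11 to 1.64%), and at E11.5 it kept 163 of 8907 (1.83%, 1.56 to 2.13%). Single-cell RNA was measured by droplet 3′ sequencing in C57BL/6 embryos, with 1 library at each age; the labels name no mutation and no treatment. Each library pooled dorsal aorta, surrounding tissue and fetal liver, and the number of embryos behind it is not given in the sources used here. With 1 library per age there is no replicate, so no test was made, and the intervals below cover counting error only. Embryonic age, dissection and library cannot be told apart in any difference between E10.5 and E11.5.

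Stellate cells lie between the hepatocytes and the sinusoidal endothelium, where in the adult they store vitamin A as retinyl esters and, after injury, make extracellular matrix. In the embryo their precursors arise from mesoderm of the septum transversum and the covering mesothelium, and they surround the hepatic cords while the liver becomes the main site of blood formation. The LIM homeobox factor Lhx2 is active in these cells, and mice without it have small, fibrotic livers. Precursors are known as a source of secreted signals for hepatoblasts, endothelium and blood cells.

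The genes of the rule are given as a description, because they chose the cells. Summed over members, Lhx2 stood at 427 CPM in the E10.5 library and 329 in the E11.5 library, and members held 41.1 and 79% of its UMIs over all kept cells of the library. CPM is the UMI count of a gene for each 1000000 UMIs summed over the cell group, leaving out haemoglobin and mitochondrial genes. Where a pair of values is given without ages, the E10.5 value comes first. Colec11, a circulating collectin, was at 275 and 370 CPM, and its partner Colec10 was at 136 and 265 CPM. Reln, which encodes the secreted glycoprotein reelin, was at 124 and 278 CPM, but hepatoblasts held it at 238 and 317 CPM. Reln thus marked no single liver cell type here, and the collectins alone would have kept 100 of the 104 and 157 of the 163 members. Colec11 was seen in 100 and 158 members and Colec10 in 79 and 145.

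Cells on either side of the thresholds differed in what else they carried. The 6 E10.5 members with exactly 2 Lhx2 UMIs had 71.2 CPM of Gdf2 and 213 of Gdf10. The 14 cells left out for having only 1 Lhx2 UMI had 15.5 and 43.8 CPM. At E11.5 the corresponding 27 members and 17 excluded cells stood closer, with 132 against 107 CPM of Gdf2 and 116 against 117 of Gdf10. The Hnf4a condition removed 1 cell at E10.5 and none at E11.5, and the Upk3b condition removed 9 and 6. Those 9 cells held 52.7 CPM of Gdf2 and 219 of Wt1, the transcription factor that marks mesothelium. Just inside that limit, the 5 E10.5 members with 1 or 2 Upk3b UMIs held 30 of the 51 member UMIs of Aldh1a2 and 1 of the 220 of Gdf2. In these 5 cells Aldh1a2 stood at 190 CPM, against 13.9 in the other 99.

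Genes outside the rule were then set beside the label. The gene lists were chosen with earlier results of these data known, so this is a description and no independent check. Of the stellate markers not used to choose cells, 14 of the 16 measured at E10.5 were higher than in all other cells, 12 of them at least 2-fold, with a median log2 ratio of 1.54. At E11.5 the counts were 15 of 18 and 13, with a median of 2.0. Among all genes measured, 6.87% of 12496 were at least 2-fold higher in members at E10.5, as were 5.1% of 13885 at E11.5, while 9.72 and 16.4% were at least 2-fold lower, and the median over all genes was 0.00 and -0.12. A gene was measured when it had at least 20 UMIs in the groups compared and at least 1 of its levels lay above what 3 counts give. The members are called stellate precursor-like from these comparisons with all other cells, and the visceral mesenchyme described below stood closer to them. Des, the intermediate filament desmin, stood at 152 CPM at both ages against 57.6 and 18.7 in other cells. Among the listed markers that were lower in members were Dcn at E10.5 and Ecm1 at E11.5. With the highest member left out, their log2 ratios were -0.61 and -0.72. Tgfbr3, a co-receptor of the TGF-beta family that is not one of the listed markers, stood at 86.4 and 155 CPM against 9.65 and 15.1. Lrat, the enzyme that makes retinyl esters and a defining gene of adult stellate cells, had 1 UMI at E10.5 and 16 UMIs in 8 cells at E11.5. Those 16 UMIs were 72.7% of the gene's UMIs in the library, so Lrat was rare but mostly within the members.

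A trio of secreted members of the TGF-beta superfamily stood far above the other cells. Gdf2, which encodes BMP9, was at 132 CPM in E10.5 members (95% interval 115 to 151) and at 176 in E11.5 members (160 to 192). All other cells together held 1.15 and 1.12 CPM. The log2 ratio was 6.84 (6.54 to 7.14) at E10.5 and 7.29 (7.03 to 7.56) at E11.5. Cells that are 1.19% and 1.85% of the kept UMIs thus held 58.4 and 75.3% of the Gdf2 UMIs of their library. Bmp10, the close relative of Gdf2 best known from the heart, was at 27 CPM (19.7 to 36.1) and 50.5 CPM (42.5 to 59.6). Its level elsewhere was 0.419 and 0.336 CPM, and members held 44.1 and 74.5% of its UMIs. Both ligands bind the endothelial receptor ALK1, encoded by Acvrl1. Acvrl1 had 2 UMIs in the E10.5 members and 0 in the E11.5 members, whereas endothelium held 61.6 and 66.2 CPM. Gdf10, also called BMP3B, was at 266 CPM (242 to 292) and 193 CPM (177 to 210) against 3.42 and 9.05 CPM elsewhere. The members' share of Gdf10 UMIs was 48.7% and 29.3%.

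**Figure D1:**
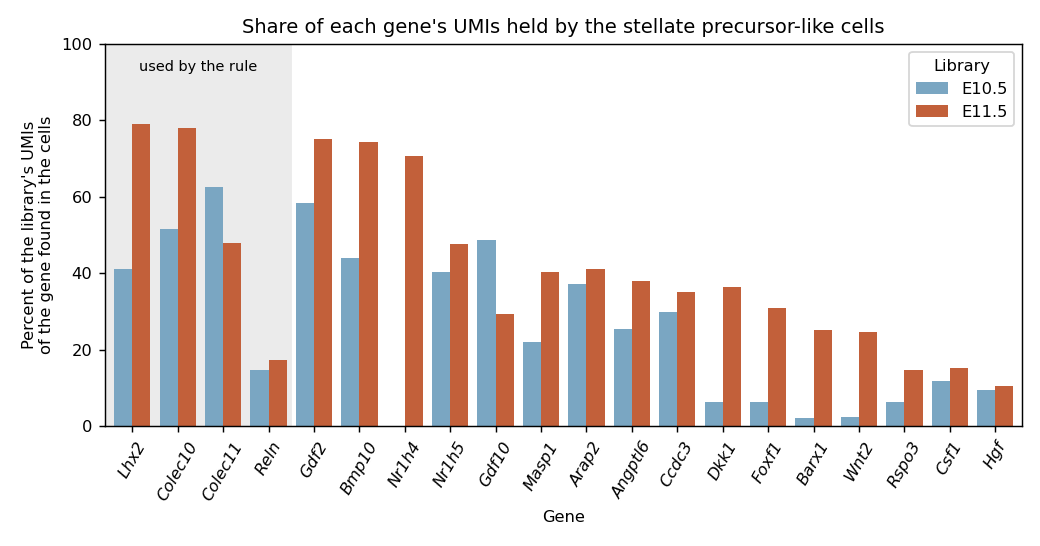
Bars give the percent of a gene's UMIs, over all kept cells of the library, that lay in the stellate precursor-like cells (y axis) for each gene (x axis) at E10.5 and E11.5; grey marks genes used by the rule. Gdf2 stood at 58.4 and 75.3% although the cells held 1.19 and 1.85% of all UMIs of kept cells.

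On raw counts, most members had UMIs of both Gdf2 and Gdf10, but fewer did at equal depth. Raw counts found a Gdf2 UMI in 83.7% of E10.5 and 88.3% of E11.5 members, and 43.6 and 59.6% had one after each cell was thinned to 5000 UMIs. The members deep enough to thin numbered 101 and 161. Bmp10 was found in 37.5 and 53.4% before thinning and in 10.9 and 25.5% after it. Gdf10 was found in 90.4 and 79.8% before thinning and in 65.3 and 54% after it. For Gdf2 and Gdf10 jointly the raw share was 77.9 and 71.8% of members, beside 75.6 and 70.5% if the genes were unrelated. After thinning the joint share was 30.7 and 34.8%, beside 28.5 and 32.2%. Raw counts had Gdf2 and Bmp10 jointly in 32.7 and 47.9%, beside 31.4 and 47.2%. In each case the joint share was close to the product of the single shares. The median member had 1.19 and 1.65 Gdf2 UMIs per 10000 UMIs, and for Gdf10 these were 2.57 and 1.61.

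**Figure D2:**
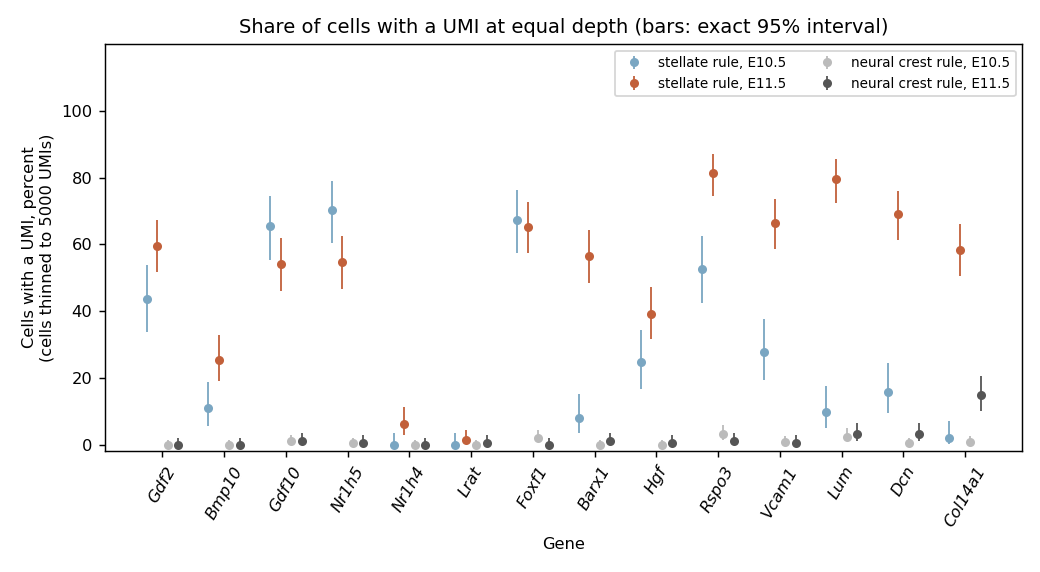
Points give the percent of cells with a UMI of each gene after thinning to 5000 UMIs, and bars the exact 95% interval, for stellate precursor-like and neural crest-like cells of each library. Neural crest cells, which should lack these genes, gave the background and stayed near 0 for Gdf2, Bmp10, Nr1h5, Hgf and Vcam1, while Col14a1 reached 14.7% there at E11.5.

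Gdf10 and Gdf2 are neighbours on chromosome 14, transcribed in the same direction with 3055 bases between them (GRCm38: Gdf10 at chr14:33923587-33937983, Gdf2 at chr14:33941039-33947198). Bmp10 lies at chr6:87428994-87437677. With the nuclear receptor gene Nr1h5 (chr3:102939658-102964133, minus strand), they filled the first 3 ranks over other cells at E10.5 (Gdf2, Gdf10, Nr1h5) and at E11.5 (Gdf2, Bmp10, Nr1h5), so the 250 bases before each annotated start are printed from RefSeq (GRCm38.p6). Capitals mark AGATAA, a form of the GATA factor motif, or TAATTA, a homeodomain core that LIM homeobox factors can bind. Both strands were searched, and the strand printed is that of the gene, 5′ to 3′.
Gdf2, chr14:33940789-33941038, plus strand: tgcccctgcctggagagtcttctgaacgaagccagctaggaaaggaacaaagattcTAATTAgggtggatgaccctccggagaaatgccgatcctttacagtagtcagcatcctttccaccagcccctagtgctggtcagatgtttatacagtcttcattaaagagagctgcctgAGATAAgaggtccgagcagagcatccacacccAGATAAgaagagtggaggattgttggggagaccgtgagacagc
Bmp10, chr6:87428744-87428993, plus strand: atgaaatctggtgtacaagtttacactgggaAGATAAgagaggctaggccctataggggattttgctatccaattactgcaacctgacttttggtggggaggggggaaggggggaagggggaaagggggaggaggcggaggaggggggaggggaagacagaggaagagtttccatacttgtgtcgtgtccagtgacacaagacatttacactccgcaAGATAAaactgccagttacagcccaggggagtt
Gdf10, chr14:33923337-33923586, plus strand: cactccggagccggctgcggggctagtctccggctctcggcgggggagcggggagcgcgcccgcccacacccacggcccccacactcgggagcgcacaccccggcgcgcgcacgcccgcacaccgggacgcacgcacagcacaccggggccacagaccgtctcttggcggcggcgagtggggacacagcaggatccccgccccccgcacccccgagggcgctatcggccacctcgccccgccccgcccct
Nr1h5, chr3:102964134-102964383, minus strand: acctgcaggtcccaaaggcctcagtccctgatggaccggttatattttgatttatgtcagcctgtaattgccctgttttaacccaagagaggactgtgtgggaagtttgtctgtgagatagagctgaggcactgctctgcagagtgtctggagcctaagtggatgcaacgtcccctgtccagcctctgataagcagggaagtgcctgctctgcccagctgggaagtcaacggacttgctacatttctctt
The Gdf2 window held AGATAA 75 and 43 bases before the start and TAATTA 194 bases before it. The Bmp10 window held AGATAA 219 and 33 bases before the start. Those of Gdf10 and Nr1h5 held none of the motifs searched, which also included GTAAACA of the forkhead factors. Other forms of the GATA factor motif were not searched, such as the tgataa in the Nr1h5 window. Among 32851 RefSeq promoter windows of the same length, 9.99% held AGATAA, 4.84% held TAATTA and 3.17% held GTAAACA. These are letter matches only, and the Gdf2 neighbour Gdf10 shared none of them.

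Outside the collectins that chose the cells, lectin complement genes differed from one another. Masp1, whose products are the serine proteases MASP-1 and MASP-3 that travel with collectins, was at 107 and 193 CPM. The log2 ratio over other cells was 4.53 and 5.13, and members held 22.1 and 40.5% of the UMIs. Masp2, the protease of the same pathway, had 0 and 2 UMIs in members, against 24.2 CPM in hepatoblasts at E11.5. Colec12, a membrane-bound scavenger collectin, was lower in members than elsewhere, at 16.8 and 23.8 CPM against 32.4 and 58. Masp1 thus stood high, and Masp2 and Colec12 did not.

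Nr1h5 encodes FXR-beta, a nuclear receptor that in mice responds to lanosterol, and it is related to the bile acid receptor FXR, encoded by Nr1h4. Nr1h5 was at 293 CPM (268 to 320) at E10.5 and 180 CPM (164 to 196) at E11.5, with 5.31 and 3.82 CPM elsewhere. Its log2 ratios over other cells were 5.79 and 5.56. Nr1h4 was not detected at E10.5, in 0 of 104 members, which allows a share of up to 2.88% of cells with a UMI. At E11.5 it had 53 UMIs in 41 of 163 members, 19.1 CPM (14.3 to 25), beside 0.154 CPM elsewhere, and members held 70.7% of the UMIs in the library. After thinning, 6.21% of E11.5 members had an Nr1h4 UMI. Lanosterol is an intermediate of cholesterol synthesis, and 16 of the 17 cholesterol synthesis genes were lower in members than in other cells at both ages. Their median log2 ratio was -1.10 at E10.5 and -0.74 at E11.5, while 50.2 and 39.3% of all measured genes were higher in members. Hmgcs1, which acts early in the pathway, was at 113 and 103 CPM beside 270 and 172. Sqle, which makes the epoxide cyclised to lanosterol, was at 49.2 and 51.9 CPM beside 114 and 71.4.

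Transcription factors of liver mesenchyme did not stand apart as a list, with 13 of 27 higher than in other cells at each age and medians of -0.37 and -0.09. Lhx2, which the rule used, is among the 13. Of all measured genes, 50.2 and 39.3% were higher. Several single factors were well above the other cells. Hlx, a homeobox gene required in liver mesenchyme for the organ to grow, was at 155 and 113 CPM, with 13 and 20.7 CPM elsewhere. Foxf1, a forkhead factor of visceral mesoderm, was at 258 and 189 CPM, with 45.7 and 8.17 elsewhere. Its share of library UMIs in members was 6.46 and 31%. Gata4, a zinc finger factor of septum transversum mesenchyme, was at 148 and 98.1 CPM against 18.5 and 22.1. Hand2, a basic helix-loop-helix factor of visceral mesoderm, was at 191 and 306 CPM against 37.6 and 49.1. Wt1 went the other way, at 57 and 36.4 CPM in members against 91.1 and 135 elsewhere.

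Retinoid genes, which serve vitamin A uptake, storage and signalling, were mixed. Of the measured retinoid genes, 8 of 22 at E10.5 and 8 of 24 at E11.5 were higher in members, with medians of -0.56 and -0.33, beside 50.2 and 39.3% of all genes. The receptor gene Rarb was at 81 and 97 CPM beside 25.6 and 26.3. Aldh1a2, which makes retinoic acid, was at 30.6 and 29.2 CPM, far under the 544 and 413 CPM of mesothelium. Members thus had more of the receptor gene than other cells, little of the acid-forming enzyme and very few Lrat UMIs.

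Signals toward neighbouring cells were uneven within each list. Of ligands that act on hepatoblasts, 11 of 27 measured at E10.5 and 8 of 30 at E11.5 were higher in members than elsewhere, where 50.2 and 39.3% of all measured genes were. Hgf, the hepatocyte growth factor gene, was at 60.6 CPM (49.3 to 73.6) and 89.1 CPM (78.3 to 101), with log2 ratios of 3.09 and 2.60. Rspo3, a secreted amplifier of Wnt signalling, was at 214 and 464 CPM beside 38.4 and 52.6. Wnt2 was at 5.4 and 27.4 CPM, and its library share in members was 2.34% and 24.7%. Dkk1, a secreted Wnt antagonist, was at 64.2 and 149 CPM beside 11.6 and 5.06. Both Wnt amplifier and Wnt antagonist were therefore above the other cells. Bmp4, a ligand of early liver induction, was at 10.8 and 7.57 CPM, under the 45.5 and 57.2 CPM elsewhere.

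Among ligands for blood cells, 7 of 12 measured at E10.5 and 6 of 16 at E11.5 were higher in members, shares near the 50.2 and 39.3% of all genes. Csf1, the macrophage colony-stimulating factor gene, was at 43.8 and 50.9 CPM beside 3.98 and 5.52. Kitl, the stem cell factor gene, was at 145 and 75 CPM beside 52.1 and 52, while hepatoblasts held 152 and 182 CPM. Cxcl12, the chemokine that retains stem cells, was at 314 and 398 CPM beside 335 and 253. Il7, Il34, Thpo, Epo, Il6, Lif, Cx3cl1 and Tslp had no UMI in members of either age. A count of 0 allows up to 1.80 CPM in E10.5 and 1.08 CPM in E11.5 members. Csf1 was thus well above the other cells at both ages, and Kitl was also held by hepatoblasts.

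Ligands for vessels were higher in members for 10 of 15 measured genes at E10.5 and 9 of 17 at E11.5, with medians of 0.75 and 0.10, beside 50.2 and 39.3% of all genes with medians of 0.00 and -0.12. Vegfa, the main endothelial growth factor gene, was at 64.8 and 136 CPM beside 24.7 and 36.1. Adm, the vasoactive peptide gene, was at 15.6 and 92.3 CPM beside 5.66 and 9.86. Receptor genes were higher in 20 of 36 cases at E10.5, near the share of all genes, and in 28 of 38 at E11.5, with medians of 0.25 and 0.51. Ednrb, an endothelin receptor gene, was at 193 and 229 CPM. Pdgfrb, a receptor of pericytes and stellate cells, was at 63 and 63.1 CPM beside 22.2 and 34.4. The nerve growth factor receptor gene Ngfr was at 38.4 and 35 CPM beside 11.6 and 9.73.

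**Figure D3:**
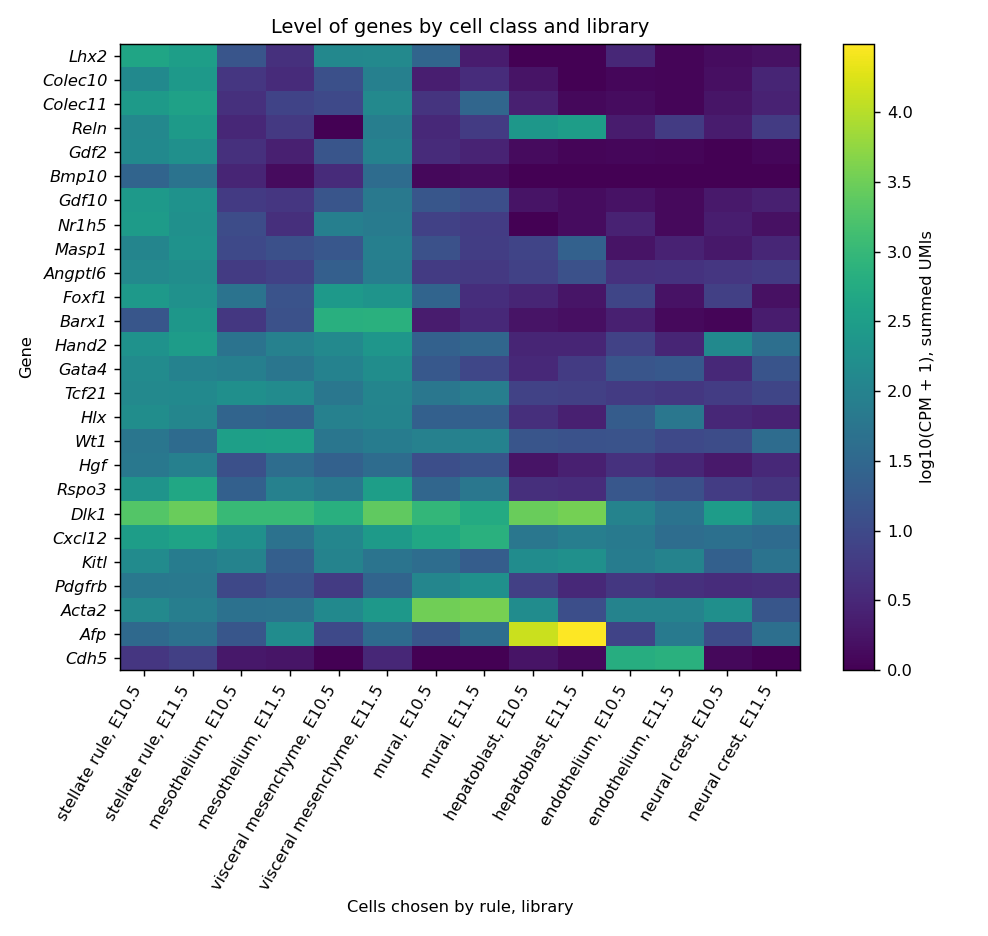
Colour gives log10(CPM + 1) of selected genes (rows) in cell classes chosen by rule in each library (columns), from summed UMIs; Lhx2, Colec10, Colec11 and Reln chose the stellate columns, and classes are compared within a row. Gdf2 and Bmp10 are bright in the stellate columns and in the E11.5 visceral mesenchyme, Acta2 in mural cells, Afp in hepatoblasts and Cdh5 in endothelium.

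Other genes named by rank over all other cells had varied functions. Angptl6, a secreted angiopoietin-like protein gene, was at 130 and 161 CPM, and members held 25.4 and 37.9% of its UMIs. Arap2, a regulator of small GTPases, was at 110 and 126 CPM with shares of 37.2 and 41.3%. Dgkk, a diacylglycerol kinase gene on the X chromosome, was at 69.6 and 77.5 CPM. Plagl1, an imprinted zinc finger gene, was at 955 and 1274 CPM beside 88.7 and 125 elsewhere. Capn6, a calpain without protease activity, was at 361 and 291 CPM beside 28.6 and 37.6. Hmcn1, the matrix protein hemicentin, was at 193 and 264 CPM beside 14.8 and 32.6. All of these stood above other cells in both libraries.

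Mesothelium was the first class set beside the members, since stellate cells are partly traced to it. The class held 437 and 514 mesothelium-like cells, chosen by at least 3 Upk3b UMIs and a Wt1 UMI, so its values too are a description. Ednrb was 5.09 higher in members on the log2 scale at E10.5 (4.67 to 5.52) and 6.50 higher at E11.5 (5.89 to 7.18). Vcam1, an adhesion molecule that binds leukocyte integrins, was 5.57 (4.73 to 6.52) and 6.23 (5.75 to 6.76) higher. Ccdc3, a secreted-protein gene, was 7.10 and 6.98 higher, and Gdf2 was 5.39 and 6.87 higher. Plvap, a diaphragm protein best known from endothelium, was at 163 CPM in E11.5 members against 1.15 in mesothelium, and 128 of 163 members had a UMI of it. Stellate markers outside the rule were higher in members in 14 of 16 cases at E10.5 and 13 of 16 at E11.5, and 10 and 11 were at least 2-fold higher. Over all genes measured, 7.78 and 6.94% were at least 2-fold higher in members than in mesothelium, and 7.88 and 13% were lower.

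Mesothelial genes were lower throughout. None of the 11 and 12 mesothelium markers measured was higher in members, with medians of -4.13 and -5.31, and Upk3b and Wt1 had chosen the class. Bnc1, a zinc finger factor of mesothelium, had 1 UMI in members at each age. Lhx9, the LIM homeobox relative of Lhx2, was at 9 CPM against 230 at E10.5 and at 14.8 against 184 at E11.5. Upk1b had no UMI in E11.5 members, beside 56.8 CPM in mesothelium, so it was at least 5.71 lower on the log2 scale at a floor of 3 counts over the group. Krt7 and Krt18, simple epithelial keratins, were at 1.44 and 3.97 CPM in E11.5 members against 128 and 235. The class with high Lhx9 was thus not the one chosen for Lhx2.

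Mural cells, the smooth muscle and pericytes of vessel walls, numbered 177 and 491 and were chosen by Pdgfrb with Rgs5, Cspg4 or Abcc9. Acta2, the smooth muscle actin gene, was at 128 and 81.9 CPM in members against 3342 and 3683 CPM in mural cells. Actc1, the cardiac actin gene, was 4.19 lower on the log2 scale at E10.5 and 8.56 lower at E11.5. Nr1h5 was 5.54 (4.99 to 6.16) higher in members than in mural cells at E10.5. Barx1 was 6.67 (6.05 to 7.37) higher at E11.5. Cells that also met the Barx1 and Foxf1 rule of the visceral mesenchyme below had been left out of the mural class. This Barx1 value is therefore a description only. Over all genes measured against mural cells, 4.79 and 4.52% were at least 2-fold higher in members and 6.68 and 12.6% lower. Contractile and activated stellate genes as a list were higher in members than in all other cells in 13 of 19 cases at E10.5 and 5 of 20 at E11.5, with medians of 0.19 and -0.38. Of all measured genes, 50.2 and 39.3% were higher. Part of this rested on single cells, as the highest E10.5 cell held 85 of the 213 UMIs for Acta2 and 180 of the 465 for Tagln.

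A small class of visceral mesenchyme held 38 and 27 cells. It was chosen by at least 2 UMIs each of Barx1 and Foxf1 outside the members, so it cannot speak on those genes. Cells that also met the rule of another comparison class were left out. Stellate markers outside the rule were higher in members in 16 of 16 cases at E10.5 and 13 of 16 at E11.5, with medians of 1.31 and 0.89. These counts take ratios of any size, so they cannot be set beside the 2-fold shares of all genes given below. They summed to 2914 CPM in members against 1580 at E10.5 but to 3309 against 2843 at E11.5. Gdf10 was 4.25 (3.40 to 5.26) higher in members on the log2 scale at E10.5 and 1.58 (1.04 to 2.18) higher at E11.5. Isl1, a LIM homeobox factor of gut and heart mesoderm, was 4.66 and 2.65 lower. At E11.5 these 27 cells themselves held 131 CPM of Lhx2, 131 of Colec11 and 95 of Gdf2. Collectin and lectin complement genes, with those of the rule, summed there to 344 CPM, against 863 in members and 128 in other cells. Gdf2, Bmp10, Nr1h5, Masp1, Arap2 and Angptl6 were not among the 8 genes named as highest over this class at either age. Their ratios over all other cells thus do not describe the distance to this class, whose few cells also limit the ranking. Among kept cells without an Hnf4a UMI, 65 at E10.5 and 146 at E11.5 met the Barx1 and Foxf1 condition. Of these, 3 and 72 were members. The 38 and 27 cells of the class were thus only part of those outside the members. Whether some of the class belong with the members was not tested. Against this class, 8.32 and 7.55% of all measured genes were at least 2-fold higher in members and 3.51 and 2.54% lower.

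Members of the E11.5 library differed from those of the E10.5 library in many matrix genes, in Barx1 and in several patterning genes. Of 10255 genes measured, 5.43% were at least 2-fold higher at E11.5 and 4.08% at least 2-fold lower, and the median was -0.02. Among extracellular matrix genes 31 of 35 were higher at E11.5, as were 48.5% of all genes; 17 of the 35 were at least 2-fold higher, with a median log2 difference of 1.00. All other cells had a median of 0.91 for the same 35 genes with 16 at least 2-fold higher, so a difference of like size was seen outside the members. The share of all measured genes at least 2-fold higher at E11.5 was 16.2% in other cells, 9.71% in mesothelium and 10.2% in mural cells, and the share lower was 4.46, 2.68 and 2.5%.

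**Figure D4:**
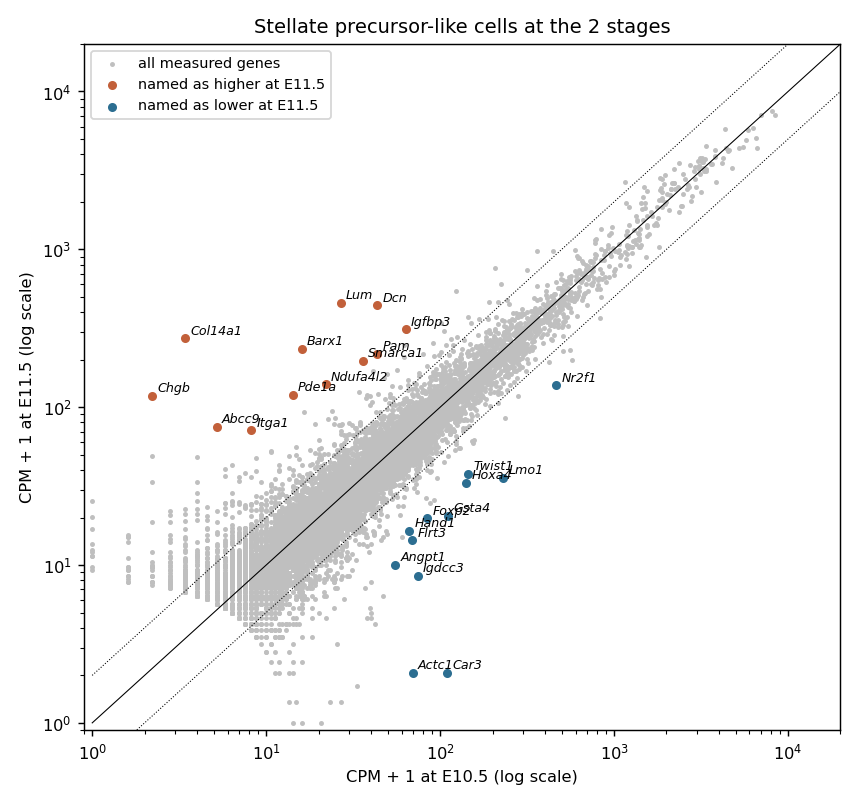
Each grey point is 1 of the 10255 measured genes, with CPM + 1 in E10.5 members on the x axis and in E11.5 members on the y axis, both log scales; coloured points are the genes named as higher or lower at E11.5. Lum and Dcn lie far above the diagonal with 25.8 to 459 and 42.6 to 441 CPM, and Lmo1 lies below it with 230 to 34.6 CPM.

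Collagens and proteoglycans led the matrix genes. Col14a1, a fibril-associated collagen, was at 2.4 and 273 CPM, a log2 difference of 6.83 (5.47 to 8.71). It was seen in 3.85% of E10.5 and 81.6% of E11.5 members, but at E11.5 it was also seen in 39.6% of neural crest cells, and 58.4 and 14.7% after thinning. Lum, the proteoglycan lumican, was at 25.8 and 459 CPM (4.15, 3.72 to 4.63). Dcn, the proteoglycan decorin, was at 42.6 and 441 CPM (3.37, 3.03 to 3.74). Both had low shares in thinned neural crest cells, at most 3.05%, against 79.5 and 68.9% of thinned E11.5 members. Col1a1 was at 100 and 339 CPM, Col3a1 at 314 and 743, and the basement membrane collagen gene Col4a1 at 36.6 and 113. Matrix genes lower at E11.5 included Ecm1 by 0.93 and Fbln1 by 0.57 on the log2 scale.

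Barx1, a homeobox gene known from stomach mesenchyme, was at 15 CPM in E10.5 members (9.70 to 22.1) and 234 in E11.5 members (216 to 252). Cells with a Barx1 UMI were 12 of 104 members at E10.5 and 67.5% of those at E11.5, and 7.92 and 56.5% after thinning. Of the E11.5 members, 98 had UMIs of both Gdf2 and Barx1 and 12 had Barx1 without Gdf2. At E10.5 the 5 members with Upk3b UMIs held 11 of the 25 Barx1 UMIs, and a single cell held 9. Members held 2.12 and 25.1% of the library's Barx1 UMIs. Other genes higher at E11.5 were Abcc9, a potassium channel subunit of pericytes, at 4.2 and 74.3 CPM, and the integrin gene Itga1 at 7.2 and 70.3 CPM. The cyclic nucleotide phosphodiesterase gene Pde1a was at 13.2 and 118 CPM, but it was also higher at E11.5 in other cells. With the highest member left out, its log2 ratio over other cells was 2.80 at E10.5 and 2.56 at E11.5. Vcam1 was at 62.4 and 304 CPM, a log2 difference of 2.28 (1.99 to 2.59). Of the collagen receptor Itga1, reads may also come from Gm49395, whose exons overlap it on the same strand.

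Genes lower at E11.5 included several transcription factors. Lmo1, a LIM-only partner protein gene, was at 230 and 34.6 CPM, 2.73 lower on the log2 scale (2.40 to 3.07). Igdcc3 was at 73.2 and 7.57 CPM, Hoxa4 at 140 and 32.1, and Foxp2 at 83.4 and 18.8. For Igdcc3 other cells were lower by a like amount. With the highest member left out, its log2 ratio over other cells was -0.90 at both ages. The mesodermal factors Twist1, at 143 and 36.8 CPM, and Hand1, at 65.4 and 15.5, were also lower. Nr2f1, an orphan nuclear receptor gene, was at 465 and 137 CPM. Angpt1, a ligand of the endothelial receptor TIE2, was at 54 and 9.02 CPM, and Flrt3 was at 67.8 and 13.3. Limb and body wall genes were lower in 6 of 6 cases with a median of -2.39, beside -2.61 for the same genes in other cells. Over all genes measured in members the median was -0.02, and 48.5% were higher. Hence the lower limb and body wall values held in both.

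Ligands and markers split by age. Gdf2 was 0.41 (0.18 to 0.65) higher at E11.5 on the log2 scale, and Bmp10 was 0.90 (0.41 to 1.42) higher. Gdf10 was 0.46 lower (0.28 to 0.65) in members, whereas in other cells it was 1.40 higher. Nr1h5 was 0.71 lower (0.52 to 0.89), and Masp1 was 0.85 higher (0.60 to 1.10). Rspo3 was 1.12 higher (0.94 to 1.29), Wnt2 was 2.34 higher (1.34 to 3.53), and Kitl was 0.95 lower (0.67 to 1.22). The ALK1 ligands Gdf2 and Bmp10 were thus higher at E11.5, and Gdf10, the gene beside Gdf2, was lower. Stellate markers outside the rule were split, with 9 of 16 higher, beside 48.5% of all genes. Their median was 0.05, beside 0.51 for the same genes in other cells. Pdgfra was 1.41 higher (1.01 to 1.82), whereas Pdgfrb stood at 63 and 63.1 CPM.

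Genes of G2 and M phase and of glycolysis had medians of opposite sign in members and in mesothelium or mural cells; the difference itself was not tested. Of all genes measured in members, 48.5% were higher at E11.5, with a median of -0.02. Genes of G2 and M phase were higher at E11.5 in 17 of 18 cases, with a median of 0.43. The medians were -0.11 in all other cells, -0.19 in mesothelium and -0.25 in mural cells. Mki67, the proliferation marker, was at 143 and 371 CPM. The median member held 547 and 539 UMIs of these genes for each 1000000 of its own, while the sum over members was 2889 and 4001 CPM, so the higher sum was not seen in the median cell. Genes of S phase were higher in 10 of 20 with a median of 0.00, beside -0.15, -0.42 and -0.20 in the same classes. Glycolysis genes were higher in 14 of 16 with a median of 0.35, beside 0.02, -0.35 and -0.37 in the same classes. The glycolytic kinase gene Pgk1 was at 595 and 985 CPM. The median depth of members was 13451 and 15564 UMIs, and whether these lists follow depth or library was not tested.

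**Figure D5:**
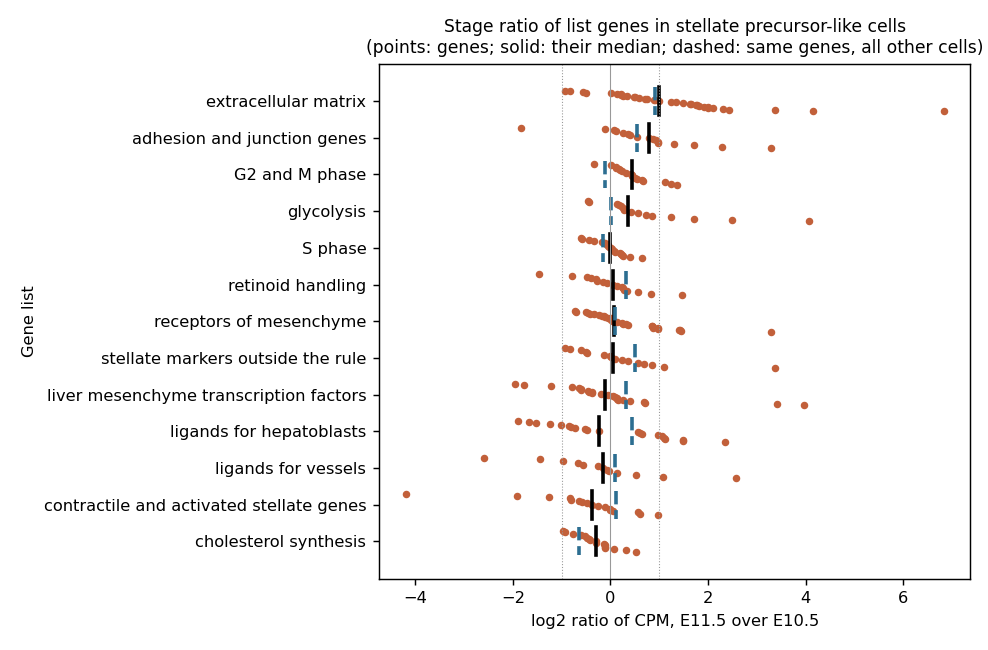
Points give the log2 ratio of CPM at E11.5 over E10.5 for each measured gene of a list in stellate precursor-like cells, solid bars the list median and dashed bars the median of the same genes in all other cells; dotted lines mark 2-fold. For extracellular matrix the medians were 1.00 and 0.91, and for G2 and M phase they were 0.43 and -0.11.

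Some large values rested on 1 cell each. One E11.5 member held 320 of the 325 Chgb UMIs, and with the highest cell of each age left out the log2 difference by age was 1.60 in place of 6.61, from 5 UMIs against 1. For Car3, 1 E10.5 member held 165 of 182 UMIs, and with the highest cell of each age left out the difference was -4.83 in place of -6.66, from 1 UMI against 17. At E10.5, 98 of 112 Cck UMIs came from 1 cell. At E11.5 the endothelial genes Lyve1, Stab2 and Kdr had 76 of 76, 17 of 17 and 37 of 41 UMIs in 1 cell each. These genes do not describe members as a group.

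Markers of mesothelium, hepatoblasts other than Dlk1, endothelium and macrophages were low in members, and those of visceral mesenchyme and epicardium were not. Visceral mesenchyme markers summed to 370 and 449 CPM in members, 197 and 114 in all other cells and 1164 and 958 in their own class. Foxf1 and, at E11.5, Barx1 held most of this, and 2 of 7 and 2 of 6 measured markers were higher than in other cells. Epicardium and heart markers summed to 271 and 276 CPM in members against 137 and 145 in all other cells and 473 and 504 in mesothelium. They were higher than in other cells in 4 of 7 and 5 of 7 cases, among them the mesodermal factors Tcf21, at 127 and 136 CPM, and Tbx20, at 51 and 60.6. Of all measured genes, 50.2 and 39.3% were higher in members than in other cells. Mesothelium markers summed to 187 and 91.3 CPM, against 1734 and 2107 in the mesothelium-like class. Hepatoblast markers summed to 2014 and 3063 CPM, of which Dlk1, a surface protein gene of fetal liver cells, made up 1951 and 2966, while Hnf4a was barred by the rule. Alb, the albumin gene, was at 3.6 and 13.3 CPM, against 556 and 7338 CPM in hepatoblasts. Endothelium markers summed to 103 and 177 CPM against 3592 and 4273, and macrophage markers to 0.6 and 6.85, with Ptprc and Adgre1 at no UMI. Smooth muscle markers summed to 614 and 463 CPM against 6425 and 6727 in mural cells. Nephric and gonad markers summed to 167 and 121 CPM in members against 132 and 135 in all other cells. For portal fibroblast markers the sums were 152 and 148 CPM against 152 and 245. Sums for limb and body wall (196 and 53.4 CPM), erythroid (37.8 and 89.1) and neural crest markers (70.8 and 60.6) were under those of all other cells at both ages. The part of such RNA in the results above was not tested. The libraries shared 17 barcodes among kept cells and none among members, and members ranged from 2330 to 99016 UMIs at E10.5 and from 2398 to 53389 at E11.5.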

How the data were processed

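Droplet 3′ single-cell RNA was sequenced from 1 library per age, E10.5 and E11.5. The deposited matrices hold raw UMI counts per gene and barcode, made with Cell Ranger 5.0.0 on mm10 (GRCm38), per the submitters' processing notes. The libraries held 10996 and 12289 barcodes with 151474708 and 159619785 UMIs, of which 7665 and 8907 cells passed the filters. UMIs of the cells in a group were summed, and log2 ratios of CPM were given with exact conditional 95% intervals. Levels of single groups have exact Poisson intervals and shares have exact Clopper-Pearson ones. A gene was called at a fold of 2. Comparison classes were chosen by marker rules, and members and cells that met more than 1 of these rules were left out of them. Doublets were left in, and an alternative removed the highest-scoring cells (Scrublet in scanpy 1.11.5).

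Text genes had at least 50 CPM on the higher side and at least 50 UMIs, ranked by the interval bound nearest 0, with 15 named over other cells, 8 in each direction against a class and 12 in each direction by age; list members were named as well. The 31 gene lists and the members were chosen with earlier results of these data known. Of 31053 gene IDs, 30934 matched the GENCODE M21 annotation. Promoters came from RefSeq tables. The code used Python 3.11.15, numpy 2.4.6, scipy 1.17.1 and pandas 2.3.3, and the interval computation was tested on simulated data. Levels of different genes are not compared, because 3′ UMI counts depend on annotation at the gene's end.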

Additional observations from a re-analysis of the deposited data

Results flagged for a closer look

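These 6 genes went at least 2-fold one way between E10.5 and E11.5 in the stellate precursor-like cells and at least 2-fold the other way in all other cells together. With 1 library per age, the difference between cell groups was not tested. Dkk1, the Wnt antagonist gene, was 1.21 higher at E11.5 on the log2 scale in members and had a log2 difference of -1.20 elsewhere. Bmp2, a BMP ligand gene, had log2 differences of 1.05 in members and -1.08 elsewhere. Tgfb3, a TGF-beta ligand gene, had -1.53 in members and 1.52 elsewhere. Igf1, the insulin-like growth factor gene, had -1.02 in members and 1.17 elsewhere. Actg2, the enteric smooth muscle actin gene, had -1.91 in members and 1.78 elsewhere, and 21 of its 34 UMIs in E10.5 members lay in 1 cell; with the highest cell of each age left out the members' value was -0.74, under 2-fold. Gm13889 had 3.51 in members and -1.40 elsewhere, and it rested on 1 UMI at E10.5 and 19 at E11.5.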

How the results depend on the processing

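No paired analysis was possible because each age has 1 library. Of 2305 values recomputed for 153 results under 16 settings, 2142 stayed on the same side or within the limits set, 156 moved and 7 had the opposite sign. Of the settings, 3 were chosen after seeing the data: the collectins without Reln, genes with a mean of at least 10 CPM, and each named gene without its highest cell. For named genes, 54 ratios over other cells or by age were recomputed, and a gene named in several of these comparisons counts in each. All 856 values kept their sign, and 27 moved over 1.5-fold. Ratios against mesothelium, visceral mesenchyme and mural cells were not recomputed. Cells thinned to 5000 UMIs gave a member share of 0.686% at E10.5 and 0.757% at E11.5; at E11.5 it was 2.20% with at most 5% mitochondrial UMIs and 1.53% with at least 3 Lhx2 UMIs. With a mean of at least 10 CPM, 366 genes were higher and 317 lower than in other cells at E10.5 (858 and 1214 in the report's setting), and 361 higher and 585 lower at E11.5 (708 and 2282), where thinning gave 1291 lower. By age, 557 genes were higher and 418 lower at E11.5; thinning gave 323 and 236, at least 100 UMIs gave 175 and 85, no filter gave 1009 and 927, and a mean of at least 10 CPM gave 302 and 239. The 7 reversed values were list medians over other cells. They included those of visceral mesenchyme genes (0.35 at E10.5 and 1.39 at E11.5 with a mean of at least 10 CPM, 0.51 at E11.5 thinned) and the reelin pathway (0.085 at E11.5 thinned). The rest were those of the collectins and lectin complement (5.17 thinned and 5.13 with a mean of at least 10 CPM at E11.5) and smooth muscle genes (0.56 at E11.5 with a mean of at least 10 CPM). Fewer genes of a list were measured in these settings. Removing the cells with the highest doublet scores left 97 and 147 members. At this depth Lrat and Nr1h4 had 1 and 0 UMIs in E10.5 members, too few to set a level.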
